A study of Rattus norvegicus with 9 samples.

Results

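The genes described here encode the signalling components that act downstream of the high-affinity IgE receptor, FcεRI, in RBL-2H3 cells. This line was derived from a basophilic leukemia of the rat and serves as a mast cell (MC) model. They are 53 genes of the textbook pathway, matched by symbol, and all 53 were found among the 18006 genes that had a value in 9 RNA-seq samples. The samples formed 3 groups of 3. Cells labelled IgE/DNP received anti-DNP IgE at 50 ng/ml for 12 h and then the antigen DNP-HSA at 100 ng/ml for 4 h, and cells labelled PF had the same sensitization and antigen after 1 h of pretreatment with PF, an agent that the labels do not identify. Control cells (Ctrl) are called untreated in one label field, while another gives the sensitization, so whether they received IgE is not settled. Below, a change with antigen, or antigen-related, is one between IgE/DNP and Ctrl samples, so it may include an effect of IgE itself. The time with antigen of the 3 PF samples is 4 h by one label field and 4, 5 and 6 h by another, and where a PF result was lost with the first PF sample alone, the only one at 4 h in both fields, that is said beside it. All samples come from this 1 tumour line, and nothing in the labels says that samples of a group were separate cultures, so the p-values measure the spread between these samples, which may be technical.

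Antigen that cross-links IgE on FcεRI sets off a chain of phosphorylation. The Src family kinase Lyn phosphorylates the receptor, Syk binds it and phosphorylates the adaptor LAT, and LAT gathers phospholipase C gamma, exchange factors for Ras and further adaptors into one complex. A parallel arm through Gab2 recruits phosphoinositide 3-kinase (PI3K), whose lipid products activate Akt and the Tec family kinases. The arms meet in calcium release, protein kinase C (PKC) and the MAP kinases, which drive degranulation and cytokine transcription. A lipid phosphatase, the tyrosine phosphatase SHP-1, ubiquitin ligases of the Cbl family and Rabgef1 restrain them. Much of this control acts on proteins already made, and the values here are of mRNA only.

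Expression is given in FPKM, a value corrected for transcript length and sequencing depth, so that levels of different genes can be compared within a sample. Totals ran from 580702 to 591539 FPKM in Ctrl, from 573023 to 582577 FPKM in IgE/DNP and from 610206 to 630069 FPKM in PF samples. FPKM holds no counts, so the number of reads is unknown. A relative depth of 0.983 to 1.02 was read from 17 low genes whose values step in whole multiples within a tolerance of 8%. Genes were kept only where all nonzero values met that tolerance, so a difference in depth well beyond it would not have been seen. The stimulation was visible in Egr1, an immediate early transcription factor, which was at 3.59, 4.00 and 3.35 FPKM in Ctrl samples, at 158.35, 176.09 and 173.53 FPKM in IgE/DNP samples and at 218.71, 220.8 and 238.23 FPKM in PF samples. Of 12 markers of MCs and basophils, 10 had a value and all 10 were above 1 FPKM in all 9 samples, with a summed level of 2777 to 2808 FPKM in Ctrl, 2600 to 2630 FPKM in IgE/DNP and 2735 to 2780 FPKM in PF samples. Among 6 T cell markers, Cd3e alone passed 1 FPKM and the sum stayed between 6.96 and 10.3 FPKM, while 5 macrophage markers summed to between 1.52 and 2.62 FPKM. None of 4 neutrophil markers had a value, and 2 of 4 B cell markers had one, with a sum of at most 1.15 FPKM. The 4 fibroblast markers summed to at most 0.14 FPKM and the 4 erythroid markers to at most 2.33 FPKM. In bulk RNA, fewer cells that express a gene and less RNA of it per cell cannot be told apart.

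In control cells, 1 member held most of the expression of several families. Lcp2, the adaptor known as SLP76, had the highest Ctrl mean of the 53, at 232 ± 5.72 FPKM (SD, n = 3), followed by the phosphatase gene Ptpn6 at 159 ± 9.23 FPKM, the LAT-like adaptor Lat2 at 149 ± 2.75 FPKM and the Tec family kinase Btk at 144 ± 4.58 FPKM (SD, n = 3 each). Lcp2 lay above all others in every Ctrl sample, while Ptpn6 overlapped with Lat2 and Lat2 with Btk. Of the Vav exchange factors, which activate Rac GTPases, Vav1 made up between 92.6% and 93.5% of the summed FPKM in the group means, and of the 2 phospholipases C gamma, Plcg2 made up between 91.4% and 93.4%. Lyn was at 45.2, 41.04 and 42.3 FPKM in Ctrl samples, whereas its relative Fyn was at 0, 0.04 and 0.04 FPKM. Fyn stayed at 0.02, 0.04 and 0.07 FPKM in IgE/DNP and at 0.02, 0 and 0 FPKM in PF samples, and Fgr, another Src family kinase, did not exceed 0.06 FPKM in any sample. Vav2 reached at most 0.48 FPKM, the Ras exchange factor Rasgrp1 at most 0.08 FPKM and the sphingosine kinase Sphk1 at most 0.33 FPKM. These 5 genes were below the filter of the test, which kept a gene where 3 or more of the 6 compared samples reached 1 FPKM. Map2k6, a kinase of p38, ranged from 0.52 to 1.55 FPKM and was tested between PF and IgE/DNP only.

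**Figure D1:**
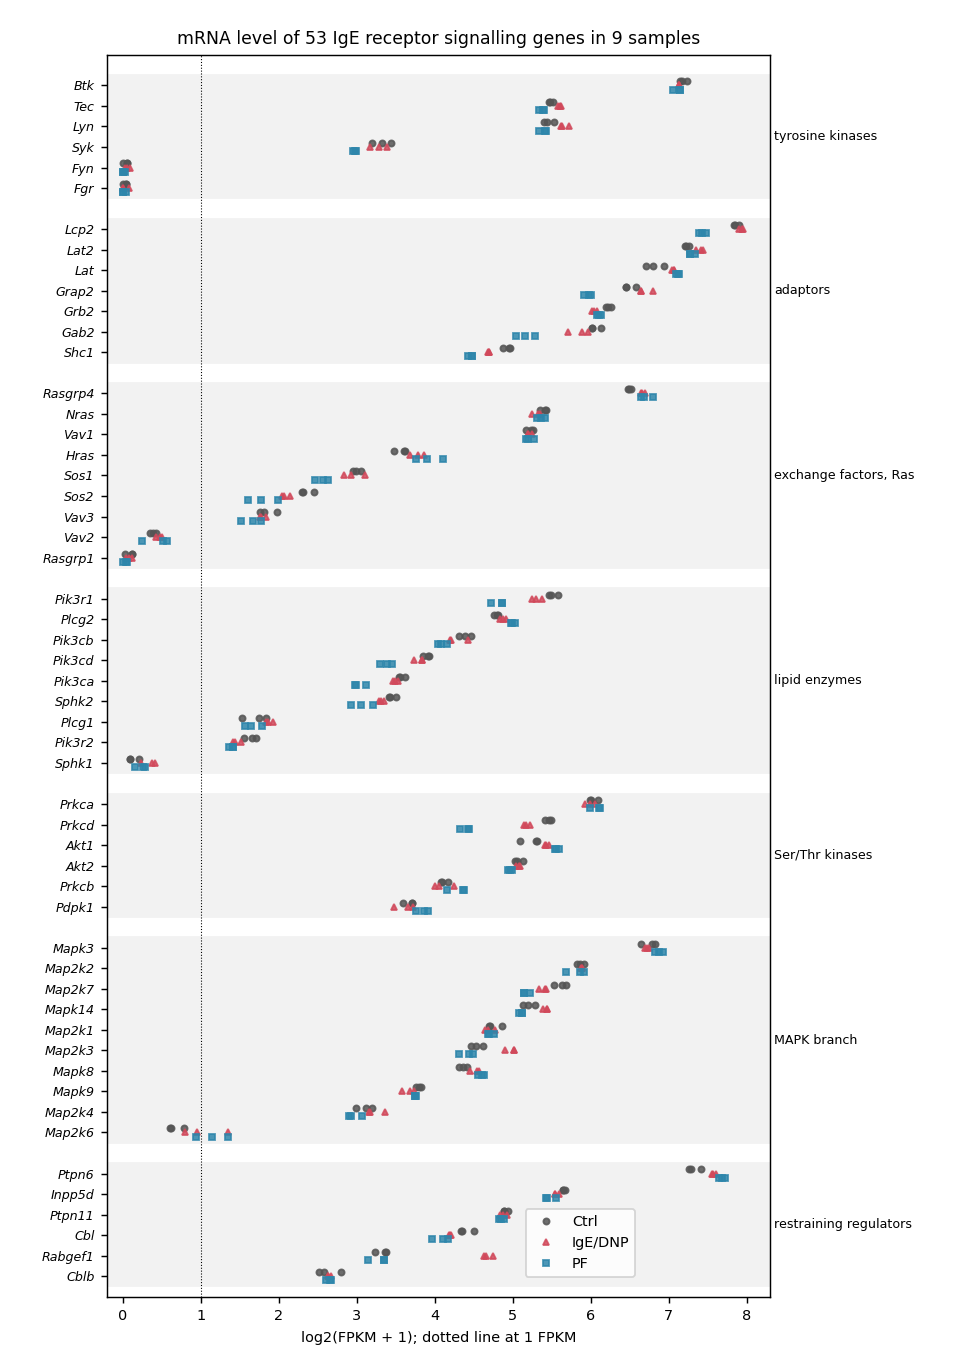
Level of the 53 members as log2(FPKM + 1), with 1 point per sample (Ctrl circles, IgE/DNP triangles, PF squares), grouped by role and ordered by level; the dotted line stands at 1 FPKM. Most members lie above 1 FPKM in all samples, while Fyn, Fgr, Vav2, Rasgrp1 and Sphk1 lie below it.

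Between IgE/DNP and Ctrl samples, many of the tested members differed by a little and 1 by a lot. In limma on log2(FPKM + 1), a scale that understates the change of low genes, 20 of the 47 members tested differed between IgE/DNP and Ctrl at an adjusted p of at most 0.05, against 29.2% of all 10392 genes tested. Of these, 13 rose, where 14.7% of all genes did, and 7 fell, where 14.4% of all genes did. The median log2 fold change was -0.03 over the members and -0.01 over all genes. Only Rabgef1 moved by at least 0.5 on the log2 scale among the tested members, where 3.71% of all genes did. The next largest was that of Map2k3, the kinase that activates p38, and the other 18 changed by between -0.28 and 0.26. Groups did not overlap for 30 of the 47 members, against 45.8% of all genes. At an adjusted p of 0.01 in place of 0.05, 9 members were left, a count given without the share of all genes at that threshold.

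With PF pretreatment, the direction of most changes was down. Between PF and IgE/DNP samples 25 of 48 members differed, against 48.8% of all 10329 genes tested. Of these, 20 fell, where 30.7% of all genes did, and 5 rose, where 18.1% of all genes did. All 6 members that moved by at least 0.5 fell, namely Rabgef1, Prkcd, Grap2, Gab2, Map2k3 and Lcp2, where 10.7% of all genes fell as far. Groups did not overlap for 32 of the 48, against 57.6% of all genes. Between PF and Ctrl samples 28 of 47 members differed, against 57.7% of all 10361 genes tested, with 19 lower, where 34.6% of all genes were, and 9 higher, where 23.1% of all genes were. By at least 0.5 on the log2 scale, 7 members were lower, where 14% of all genes were, and groups did not overlap for 31 of the 47, against 64.8% of all genes. Any pair of these comparisons shares the samples of 1 group, so their counts are not independent.

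The split of PF calls depends on how samples are scaled to each other. As deposited, the median of all genes was -0.04 between PF and IgE/DNP and -0.05 between PF and Ctrl, and that of the members -0.10 in both. After scaling by median ratios, 10 members were higher and 18 lower in PF than in IgE/DNP samples. Of all 10317 genes tested, 2527 were then higher and 2742 lower. After scaling each sample to the mean sum no member was higher and 27 were lower, with a median over all genes of -0.13. Of all 10320 genes tested, 869 were then higher and 4302 lower. Against Ctrl the splits were 11 higher and 16 lower, and 7 higher and 24 lower, in that order. Those of all genes were 2926 higher and 3176 lower of 10353, and 1575 higher and 4316 lower of 10343. Every call of a member that was higher in PF than in IgE/DNP samples was therefore lost in one of these scalings, while 14 of the 25 calls, all of them lower, were kept in every alternative fit at a threshold of 0.05. After scaling by median ratios, the lower calls of Lat2 and Sos2 against IgE/DNP and of Tec, Grb2 and Pik3r2 against Ctrl were lost, and Lat, Grb2, Prkca, Prkcb and Mapk8 were higher in PF than in IgE/DNP samples and Lat2 and Mapk3 higher than in Ctrl samples. After scaling to the mean sum, Plcg1, Pik3cb, Akt2, Map2k2, Inpp5d, Ptpn11 and Cbl were also lower in PF than in IgE/DNP samples, and Btk, Akt2, Map2k3, Mapk14 and Ptpn11 than in Ctrl samples. Results by role are given as deposited.

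**Figure D2:**
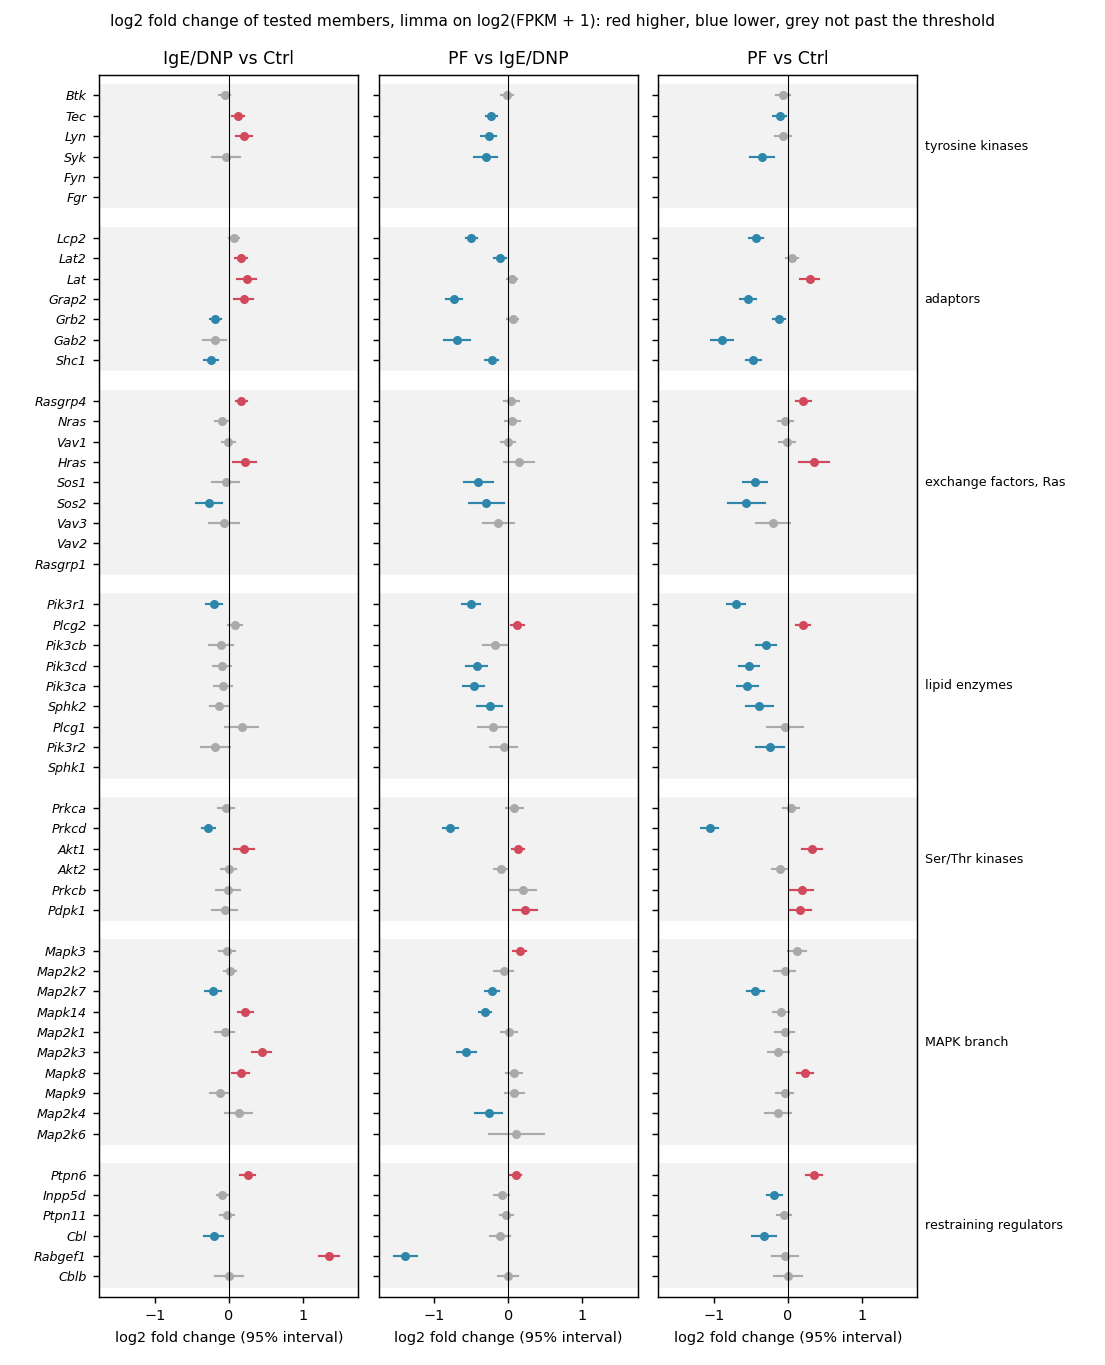
Log2 fold change on the log2(FPKM + 1) scale with its 95% confidence interval for each tested member in the 3 comparisons, grouped by role; red points were higher and blue points lower past the limma threshold, grey points did not pass, and genes below the filter have no point. Rabgef1 stands apart at 1.35 in IgE/DNP vs Ctrl and at -1.39 in PF vs IgE/DNP, and Prkcd at -1.06 in PF vs Ctrl.

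Sequence around a listed start was available for 44 of the 53 members by gene identifier in RefSeq promoter windows (GRCr8, 250 bases before to 50 bases after a listed start). The AP-1 motif TGANTCA, to which Fos and Jun dimers bind, was searched on both strands because the antigen response is known to pass through AP-1. It occurred in 3 of the 44 windows (6.82%) and in 7.33% of all 27457 windows. The cyclic AMP element TGACGTCA, which shares no match with it, occurred in none of the 44 and in 1.91% of all. GCGNGGGCG, a motif of the EGR factors searched after the values were seen, occurred in 5 of the 44 (11.4%), those of Rasgrp1, Plcg1, Cbl, Pdpk1 and Fyn, and in 5.29% of all. A match is a description of the letters and not a measured site. The windows with an AP-1 match are shown with the motif in capitals, for Shc1 at chr2:177138424-177138450 (plus strand), Map2k4 at chr10:50947188-50947214 (minus strand) and Lat2 at chr12:27740653-27740679 (plus strand), because these are all the matches among the members. The listed start lies 2899 bases inside the annotated gene for Shc1 and 68 bases inside it for Lat2, so both of these matches are within the gene, while that of Map2k4 is outside it.
Shc1: tctgagcctgTGAGTCAgcactgtcct
Map2k4: agggccacccTGATTCAagactgcagg
Lat2: tgtagagggaTGATTCAgtagtgacag
Of the 3, Lat2 rose with antigen, Shc1 fell, and Map2k4 did not pass the test. Of the members past the threshold whose listed start is the outer end of the annotated gene, Map2k3 and Ptpn6 rose most with antigen. Their 250 bases before the start lie at chr10:46107389-46107638 (plus strand) and chr4:159237070-159237319 (minus strand). These hold none of the 3 motifs, so no base is in capitals.
Map2k3: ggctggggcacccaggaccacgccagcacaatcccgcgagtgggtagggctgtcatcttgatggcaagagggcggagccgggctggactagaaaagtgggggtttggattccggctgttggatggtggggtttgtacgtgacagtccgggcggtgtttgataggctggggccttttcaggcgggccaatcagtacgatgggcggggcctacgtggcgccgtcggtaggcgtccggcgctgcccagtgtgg
Ptpn6: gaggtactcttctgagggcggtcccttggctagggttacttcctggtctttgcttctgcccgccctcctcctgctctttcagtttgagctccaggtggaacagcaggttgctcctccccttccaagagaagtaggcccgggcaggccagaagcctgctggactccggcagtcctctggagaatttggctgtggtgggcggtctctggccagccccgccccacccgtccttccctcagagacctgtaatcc

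Among the tyrosine kinases, which start the cascade, 2 of the 4 tested rose with antigen, where 14.7% of all genes did. Lower in PF than in IgE/DNP samples were 3 of the 4, where 30.7% of all genes were. Lyn went from 45.2, 41.04 and 42.3 FPKM in Ctrl to 48.14, 48.63 and 51.49 FPKM in IgE/DNP and 41.41, 39.22 and 42.03 FPKM in PF samples. The IgE/DNP samples were thus above all others, and the PF and Ctrl samples overlapped. Lyn rose by 0.20 on the log2 scale with antigen (standard error 0.0468, limma adjusted p = 0.014) and was lower in PF samples, at -0.27 on the log2 scale against IgE/DNP (limma adjusted p = 0.000922). Tec, a kinase activated through PI3K, had the same order, at 43.62, 44.55 and 42.94 FPKM in Ctrl, 47.76, 46.79 and 48.17 FPKM in IgE/DNP and 39.54, 40.76 and 41.18 FPKM in PF samples. Its log2 fold change was 0.12 with antigen (limma adjusted p = 0.0314), -0.23 between PF and IgE/DNP (limma adjusted p = 0.00078) and -0.11 between PF and Ctrl (limma adjusted p = 0.0417). Syk, the kinase that docks on the receptor, was at 9.0, 9.81 and 8.17 FPKM in Ctrl, 8.74, 9.44 and 8.01 FPKM in IgE/DNP and 6.87, 6.95 and 6.75 FPKM in PF samples. Ctrl and IgE/DNP samples overlapped, and all PF samples lay below both. With PF, Syk was lower by a log2 fold change of -0.31 against IgE/DNP (standard error 0.0679, limma adjusted p = 0.00539) and of -0.34 against Ctrl (standard error 0.072, limma adjusted p = 0.00353). With the first PF sample alone Syk had log2 fold changes of -0.30 against IgE/DNP (standard error 0.105) and -0.34 against Ctrl (standard error 0.115) and lost both calls (limma adjusted p = 0.0636 and 0.0537). Btk ran from 131.34 to 149.26 FPKM over all samples and passed the test in no comparison.

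The call for Lyn with antigen was lost without IgE/DNP replicate 3, at 0.17 on the log2 scale (limma adjusted p = 0.0519). Tec lost its call with antigen without Ctrl replicate 1 or 3 or any 1 IgE/DNP sample, at 0.11 to 0.13, and its call between PF and Ctrl without any 1 of the 6 samples, at -0.12 to -0.09, and with the first PF sample alone, at -0.14 (limma adjusted p = 0.117).

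The adaptors, which build the complex around LAT, split into members that rose with antigen and members that fell. Lat, the scaffold itself, was at 103.23, 122.13 and 110.34 FPKM in Ctrl, 133.2, 130.37 and 132.94 FPKM in IgE/DNP and 138.09, 138.52 and 134.97 FPKM in PF samples. Both antigen groups lay above Ctrl, with 0.24 on the log2 scale for IgE/DNP (standard error 0.0562, limma adjusted p = 0.0142) and of 0.29 for PF (standard error 0.058, limma adjusted p = 0.00255), and the 2 did not differ from each other by the test. Its relative Lat2 was at 147.12, 148.59 and 152.44 FPKM in Ctrl, 162.37, 169.48 and 172.19 FPKM in IgE/DNP and 153.82, 160.96 and 153.23 FPKM in PF samples. The log2 fold change of Lat2 was 0.17 with antigen (limma adjusted p = 0.00791) and -0.11 between PF and IgE/DNP (limma adjusted p = 0.0343), and the second call was lost after scaling by median ratios. Shc1, which couples the receptor to Grb2 and Sos, was at 30.1, 29.92 and 28.28 FPKM in Ctrl, 24.8, 24.83 and 24.77 FPKM in IgE/DNP and 20.56, 21.26 and 21.35 FPKM in PF samples. It fell by 0.24 on the log2 scale with antigen (standard error 0.0405, limma adjusted p = 0.00384), and the 3 groups did not overlap. Grb2, the link between Shc1 and Sos, was lower with antigen, at -0.18, and in PF than in Ctrl samples, at -0.12.

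PF samples had less mRNA of the adaptors that join LAT to SLP76 and of Gab2. Grap2, known as GADS, which tethers SLP76 to LAT, was at 94.88, 86.63 and 86.43 FPKM in Ctrl, 99.05, 110.05 and 99.09 FPKM in IgE/DNP and 61.93, 58.98 and 63.02 FPKM in PF samples. Its log2 fold change was -0.73 between PF and IgE/DNP (standard error 0.0484, limma adjusted p = 5.44e-06) and -0.53 between PF and Ctrl (standard error 0.0486, limma adjusted p = 3.67e-05). Lcp2 was at 230.25, 227.12 and 238.21 FPKM in Ctrl, 238.74, 244.5 and 247.18 FPKM in IgE/DNP and 171.33, 166.32 and 177.81 FPKM in PF samples. For Lcp2 the PF samples lay below both other groups, with log2 fold changes of -0.50 (limma adjusted p = 6.62e-06) and -0.43 (limma adjusted p = 3.54e-05). Gab2, the adaptor of the PI3K arm, was at 68.79, 63.42 and 63.51 FPKM in Ctrl, 58.11, 61.58 and 51.43 FPKM in IgE/DNP and 34.66, 31.84 and 38.06 FPKM in PF samples. The PF values of Gab2 were 0.611 times the IgE/DNP mean and 0.534 times the Ctrl mean, at log2 fold changes of -0.69 (standard error 0.0773, limma adjusted p = 0.000118) and -0.89 (standard error 0.0661, limma adjusted p = 1.32e-05). With antigen alone Gab2 had a log2 fold change of -0.19 that missed the threshold (limma adjusted p = 0.0575). Over the 7 adaptors, the summed level was 746.7 to 753.58 FPKM in Ctrl, 781.21 to 804.39 FPKM in IgE/DNP and 645.63 to 655.22 FPKM in PF samples.

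The rise of Grap2 with antigen, 0.20 on the log2 scale (limma adjusted p = 0.0254), was lost without Ctrl replicate 2 or 3 or IgE/DNP replicate 2, at 0.15 to 0.18. Without IgE/DNP replicate 2 or 3 or PF replicate 1 or 3, Lat2 lost its call between PF and IgE/DNP, at -0.10 to -0.09, as it did with the first PF sample alone, at -0.13 (limma adjusted p = 0.0755). Grb2 lost its call between PF and Ctrl without Ctrl replicate 2 or PF replicate 2 or 3, at -0.12 to -0.10, and with the first PF sample alone, at -0.10 (limma adjusted p = 0.223).

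The exchange factors load Ras with GTP. The Grb2-bound factors Sos1 and Sos2 were lower in PF samples than in both other groups, while Rasgrp4 was higher in both antigen groups than in Ctrl samples. Sos1 was at 6.95, 7.33 and 6.72 FPKM in Ctrl, 6.15, 7.62 and 6.62 FPKM in IgE/DNP and 5.19, 4.52 and 4.93 FPKM in PF samples. Its PF samples lay below all others, with log2 fold changes of -0.40 against IgE/DNP (standard error 0.0855, limma adjusted p = 0.0042) and -0.45 against Ctrl (standard error 0.0706, limma adjusted p = 0.000798). The call of Sos1 against IgE/DNP was lost with the first PF sample alone, at -0.33 (limma adjusted p = 0.0808). Sos2 was at 3.91, 3.95 and 4.45 FPKM in Ctrl, 3.4, 3.2 and 3.12 FPKM in IgE/DNP and 2.41, 2.03 and 2.98 FPKM in PF samples. It was lower with antigen, at -0.27 (limma adjusted p = 0.0307), lower in PF than in IgE/DNP samples, at -0.30 (limma adjusted p = 0.0448), and lower in PF than in Ctrl samples, at -0.56 (limma adjusted p = 0.00233). Rasgrp4, a Ras exchange factor of MCs that responds to diacylglycerol, was instead higher in both antigen groups, at 88.11, 90.71 and 88.84 FPKM in Ctrl, 102.67, 99.84 and 99.17 FPKM in IgE/DNP and 110.06, 99.06 and 101.72 FPKM in PF samples. For Rasgrp4 the log2 fold change was 0.17 with antigen (limma adjusted p = 0.00541) and 0.21 between PF and Ctrl (limma adjusted p = 0.00396), and IgE/DNP and PF samples overlapped. Hras, the GTPase that these factors load, was at 11.11, 11.23 and 10.13 FPKM in Ctrl, 11.8, 12.81 and 13.58 FPKM in IgE/DNP and 16.25, 12.55 and 13.87 FPKM in PF samples. It rose by 0.21 with antigen (limma adjusted p = 0.0412) and was higher by 0.36 in PF than in Ctrl samples (limma adjusted p = 0.00832). Nras, Vav1 and Vav3 passed the test in no comparison, and Vav1 kept to between 34.81 and 37.67 FPKM over all 9 samples.

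With antigen, Sos2 lost its call without Ctrl replicate 2 or 3 or any 1 IgE/DNP sample, at -0.29 to -0.22, and Hras without any 1 Ctrl sample or IgE/DNP replicate 2 or 3, at 0.17 to 0.24. Between PF and IgE/DNP samples Sos2 lost its call without any 1 IgE/DNP sample or PF replicate 1 or 2, at -0.32 to -0.20, and with the first PF sample alone, at -0.31 (limma adjusted p = 0.0698).

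The lipid enzymes make the second messengers of the pathway. Here PF samples had lower mRNA of PI3K subunits and higher mRNA of the phospholipase Plcg2 than Ctrl samples. Pik3r1 encodes the p85 alpha regulatory subunit that docks PI3K on phosphorylated adaptors. It was at 46.63, 43.18 and 43.84 FPKM in Ctrl, 38.45, 40.5 and 36.88 FPKM in IgE/DNP and 27.96, 25.24 and 27.95 FPKM in PF samples, so that the 3 groups did not overlap. Pik3r1 fell by 0.20 with antigen (limma adjusted p = 0.015), and PF samples were lower again, with a log2 fold change of -0.50 against IgE/DNP (standard error 0.0535, limma adjusted p = 9.59e-05) and -0.70 against Ctrl (standard error 0.0542, limma adjusted p = 1.61e-05). The catalytic subunit gene Pik3ca was at 11.31, 10.78 and 10.67 FPKM in Ctrl, 10.06, 10.56 and 10.22 FPKM in IgE/DNP and 6.97, 6.85 and 7.67 FPKM in PF samples. Pik3cd, the leukocyte isoform, was at 14.21, 13.46 and 13.99 FPKM in Ctrl, 13.31, 13.33 and 12.31 FPKM in IgE/DNP and 9.42, 8.84 and 9.92 FPKM in PF samples. Neither catalytic gene passed the test with antigen, and against IgE/DNP the PF samples were lower at log2 fold changes of -0.47 for Pik3ca (limma adjusted p = 0.000304) and -0.43 for Pik3cd (limma adjusted p = 0.000484). Pik3cb, another catalytic gene, was lower in PF than in Ctrl samples, at -0.29, and missed the threshold against IgE/DNP. Pik3r2, a second regulatory gene at 1.57 to 2.27 FPKM, was lower in PF than in Ctrl samples only, at -0.25, and Sphk2, a sphingosine kinase, was lower in PF samples in both comparisons, at -0.25 against IgE/DNP and -0.38 against Ctrl.

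Plcg2 held most of the phospholipase C gamma mRNA by FPKM. It was at 26.18, 27.03 and 26.77 FPKM in Ctrl, 29.11, 28.23 and 27.5 FPKM in IgE/DNP and 31.55, 30.67 and 30.48 FPKM in PF. The groups did not overlap, but the log2 fold change of 0.08 with antigen missed the threshold (limma adjusted p = 0.159), and that of 0.12 between PF and IgE/DNP (limma adjusted p = 0.0295) was lost after scaling to the mean sum. Between PF and Ctrl, Plcg2 was higher by 0.21 on the log2 scale (limma adjusted p = 0.00265). Plcg1 was at 2.36, 1.88 and 2.58 FPKM in Ctrl, 2.81, 2.58 and 2.64 FPKM in IgE/DNP and 2.43, 1.97 and 2.13 FPKM in PF samples, and passed the test in no comparison. Its PF samples all lay below its IgE/DNP samples, at a log2 fold change of -0.21 that missed the threshold (limma adjusted p = 0.0677). Sphk1, below the filter and not tested, was at 0.15, 0.07 and 0.07 FPKM in Ctrl and 0.18, 0.33 and 0.29 FPKM in IgE/DNP samples. Its IgE/DNP mean was 2.76 times its Ctrl mean, at very low values. Summed over the 9 lipid enzymes, the level was 128.5 to 131.63 FPKM in Ctrl, 117.82 to 124.95 FPKM in IgE/DNP and 99.07 to 104.16 FPKM in PF samples.

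The call for Pik3r1 with antigen was lost without IgE/DNP replicate 3, at -0.17 (limma adjusted p = 0.0535). Without IgE/DNP replicate 2 or 3 or PF replicate 1 or 2, Plcg2 lost its call between PF and IgE/DNP, at 0.10 to 0.13, and without IgE/DNP replicate 2 or 3 or PF replicate 1 or 3 so did Sphk2, at -0.26 to -0.19. With the first PF sample alone Plcg2 also lost that call, at 0.15 (limma adjusted p = 0.0786). Pik3r2 lost its call between PF and Ctrl without any 1 sample other than Ctrl replicate 2, at -0.26 to -0.21, and with the first PF sample alone, at -0.22 (limma adjusted p = 0.210).

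Of the serine/threonine kinases fed by these lipids, Prkcd was lower in IgE/DNP and lowest in PF samples, and Akt1 was higher. Prkcd encodes PKC delta, a PKC that needs diacylglycerol but not calcium. It was at 41.43, 42.93 and 44.05 FPKM in Ctrl, 34.28, 36.38 and 34.91 FPKM in IgE/DNP and 20.65, 19.01 and 20.51 FPKM in PF samples, with no overlap between groups. It fell by 0.28 with antigen (standard error 0.0407, limma adjusted p = 0.00208), was lower again in PF samples at -0.78 against IgE/DNP (standard error 0.0468, limma adjusted p = 3.27e-06) and reached -1.06 against Ctrl (standard error 0.0488, limma adjusted p = 1.43e-06). Of the FPKM summed over Prkca, Prkcb and Prkcd, the last held 34.7% ± 1.53 in Ctrl, 30.9% ± 0.743 in IgE/DNP and 19.1% ± 0.175 in PF samples (SD, n = 3 each). Prkca, a calcium-dependent PKC, ran from 59.49 to 68.4 FPKM and passed the test in no comparison. Prkcb, also calcium-dependent, was higher in PF than in Ctrl samples at 0.19 (limma adjusted p = 0.0393), although the groups overlapped, at 16.89 to 19.72 FPKM against 15.88 to 16.95 FPKM.

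Akt1, the kinase that PI3K lipids bring to the membrane, moved the other way, at 33.17, 38.66 and 38.46 FPKM in Ctrl, 42.04, 41.57 and 43.27 FPKM in IgE/DNP and 46.01, 45.73 and 47.03 FPKM in PF samples. The log2 fold change of Akt1 was 0.20 with antigen (limma adjusted p = 0.0362), 0.13 between PF and IgE/DNP (limma adjusted p = 0.0156) and 0.33 between PF and Ctrl (standard error 0.0607, limma adjusted p = 0.00189). Pdpk1, which phosphorylates Akt, was at 11.07, 12.1 and 12.08 FPKM in Ctrl, 11.55, 12.17 and 10.16 FPKM in IgE/DNP and 13.5, 12.52 and 14.01 FPKM in PF samples. Pdpk1 was higher in PF samples, at 0.22 against IgE/DNP (limma adjusted p = 0.0306) and 0.17 against Ctrl (limma adjusted p = 0.0442), and both calls were lost after scaling to the mean sum. Akt2 kept to between 29.75 and 34.15 FPKM and passed the test in no comparison.

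Akt1 lost its call with antigen without any 1 IgE/DNP sample, at 0.18 to 0.21, and its call between PF and IgE/DNP without IgE/DNP replicate 1 or 2, at 0.11 to 0.12, with the first PF sample alone, at 0.12 (limma adjusted p = 0.105), and after scaling to the mean sum. Pdpk1 lost its call against IgE/DNP without IgE/DNP replicate 1 or 3 or PF replicate 1 or 3, at 0.16 to 0.24, and against Ctrl without any 1 Ctrl sample or PF replicate 1 or 3, at 0.13 to 0.19. With the first PF sample alone both Pdpk1 calls were lost, at 0.24 against IgE/DNP (limma adjusted p = 0.119) and 0.19 against Ctrl (limma adjusted p = 0.145). For Prkcb the call was lost without Ctrl replicate 2 or 3 or PF replicate 1 or 3, at 0.15 to 0.18, and after scaling to the mean sum.

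In the MAPK branch, a pair of genes of the p38 arm rose with antigen and was lower in PF than in IgE/DNP samples. Map2k3 was at 21.06, 23.51 and 22.14 FPKM in Ctrl, 28.9, 31.36 and 31.44 FPKM in IgE/DNP and 21.37, 18.9 and 20.62 FPKM in PF samples. It rose by 0.44 on the log2 scale with antigen (standard error 0.0541, limma adjusted p = 0.000897), and PF samples were lower than IgE/DNP samples at -0.57 (standard error 0.0564, limma adjusted p = 6.05e-05). Mapk14, p38 alpha itself, was at 37.79, 34.03 and 35.45 FPKM in Ctrl, 40.87, 42.39 and 42.44 FPKM in IgE/DNP and 33.58, 32.89 and 33.57 FPKM in PF samples. Its log2 fold change was 0.22 with antigen (limma adjusted p = 0.0081) and -0.32 between PF and IgE/DNP (limma adjusted p = 0.000123). Between PF and Ctrl neither gene passed the test as deposited, and both were lower after scaling to the mean sum, at -0.20 for Map2k3 and -0.17 for Mapk14.

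The kinases of the JNK arm did not share 1 direction. Map2k7, which activates JNK, was at 50.16, 48.36 and 45.12 FPKM in Ctrl, 41.42, 41.86 and 39.53 FPKM in IgE/DNP and 34.37, 34.46 and 36.14 FPKM in PF samples. It was lower at each step, with log2 fold changes of -0.22 with antigen (limma adjusted p = 0.0101), -0.22 between PF and IgE/DNP (limma adjusted p = 0.00191) and -0.44 between PF and Ctrl (limma adjusted p = 0.000115). Mapk8, JNK1, was at 19.52, 18.91 and 20.3 FPKM in Ctrl, 22.33, 22.67 and 20.94 FPKM in IgE/DNP and 23.71, 22.56 and 23.42 FPKM in PF samples, higher by 0.16 with antigen (limma adjusted p = 0.0403) and by 0.24 in PF than in Ctrl samples (limma adjusted p = 0.00292). Map2k4, which activates both JNK and p38, was at 7.65, 6.93 and 8.13 FPKM in Ctrl, 9.3, 8.03 and 7.93 FPKM in IgE/DNP and 6.47, 6.58 and 7.41 FPKM in PF samples. It passed the test only between PF and IgE/DNP, at -0.27 (limma adjusted p = 0.0204), and lost that call with the first PF sample alone, at -0.33 with a standard error of 0.109 in place of 0.0787 (limma adjusted p = 0.0547). In the ERK arm, Map2k1 and Map2k2 passed the test in no comparison, and Mapk3, at 99.06 to 120.04 FPKM, was higher in PF than in IgE/DNP samples by 0.15 as deposited and not after scaling to the mean sum. Mapk9, JNK2, and Map2k6 passed the test in no comparison in which they were tested. Map2k6 was at 0.53, 0.52 and 0.72 FPKM in Ctrl, 0.73, 0.94 and 1.54 FPKM in IgE/DNP and 1.55, 0.91 and 1.2 FPKM in PF samples. Both antigen groups thus lay above Ctrl, at values near the filter, and overlapped with each other.

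Mapk8 lost its call with antigen without Ctrl replicate 1 or 2 or IgE/DNP replicate 1 or 2, at 0.14 to 0.16. Map2k4 lost its call without IgE/DNP replicate 1 or PF replicate 1 or 2, at -0.25 to -0.20.

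Among the tested members, the largest change with antigen was that of a restraining regulator. Rabgef1, an exchange factor for Rab5 and ubiquitin ligase that limits Ras and receptor signalling in MCs, was at 8.42, 9.32 and 9.25 FPKM in Ctrl, 24.25, 23.69 and 25.75 FPKM in IgE/DNP and 7.83, 9.2 and 9.2 FPKM in PF samples. Every IgE/DNP sample was above 23 FPKM and every other sample below 10 FPKM. The IgE/DNP mean was 2.73 times the Ctrl mean, or higher by 1.35 on the log2 scale (standard error 0.0567, limma adjusted p = 2.90e-06), where 0.346% of all genes passed with a change of at least 1. PF samples were lower than IgE/DNP samples at -1.39 (standard error 0.0678, limma adjusted p = 1.11e-06), and against Ctrl the difference was -0.04 with a 95% interval from -0.21 to 0.13 (limma adjusted p = 0.682). Ptpn6, the tyrosine phosphatase SHP-1, was at 155.01, 169.03 and 151.62 FPKM in Ctrl, 187.1, 187.74 and 194.2 FPKM in IgE/DNP and 209.06, 203.58 and 198.45 FPKM in PF samples. It rose by 0.26 with antigen (standard error 0.0443, limma adjusted p = 0.00394) and was higher by 0.36 in PF than in Ctrl samples (standard error 0.0474, limma adjusted p = 0.000277). The further difference of 0.10 between PF and IgE/DNP (limma adjusted p = 0.0289) came to 0.0036 after scaling to the mean sum.

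Inpp5d, the lipid phosphatase SHIP1 that removes the product of PI3K, was at 49.08, 48.93 and 49.74 FPKM in Ctrl, 45.68, 47.24 and 45.74 FPKM in IgE/DNP and 45.89, 41.96 and 42.25 FPKM in PF samples. All IgE/DNP samples lay below all Ctrl samples, but the log2 fold change of -0.09 missed the threshold (limma adjusted p = 0.0779). PF samples were lower than Ctrl samples at -0.18 (limma adjusted p = 0.00835), a call that was lost with the first PF sample alone, at -0.10 (limma adjusted p = 0.224). Cbl, a ubiquitin ligase that marks the receptor and Syk for degradation, was at 21.68, 19.22 and 19.41 FPKM in Ctrl, 17.08, 17.49 and 17.23 FPKM in IgE/DNP and 16.13, 14.54 and 16.94 FPKM in PF samples. It was lower with antigen at -0.21 (limma adjusted p = 0.0228) and in PF than in Ctrl samples at -0.32 (limma adjusted p = 0.00425). Its relative Cblb stayed between 4.73 and 5.95 FPKM and Ptpn11, the phosphatase SHP-2, between 27.35 and 29.74 FPKM, and neither passed the test. Ptpn11 was counted in this role as a phosphatase, and a restraining effect of it was not tested.

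Cbl lost its call with antigen without Ctrl replicate 1 or any 1 IgE/DNP sample, at -0.22 to -0.15. Ptpn6 lost its call between PF and IgE/DNP without IgE/DNP replicate 1 or 2 or PF replicate 1 or 2, at 0.08 to 0.10.

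**Figure D3:**
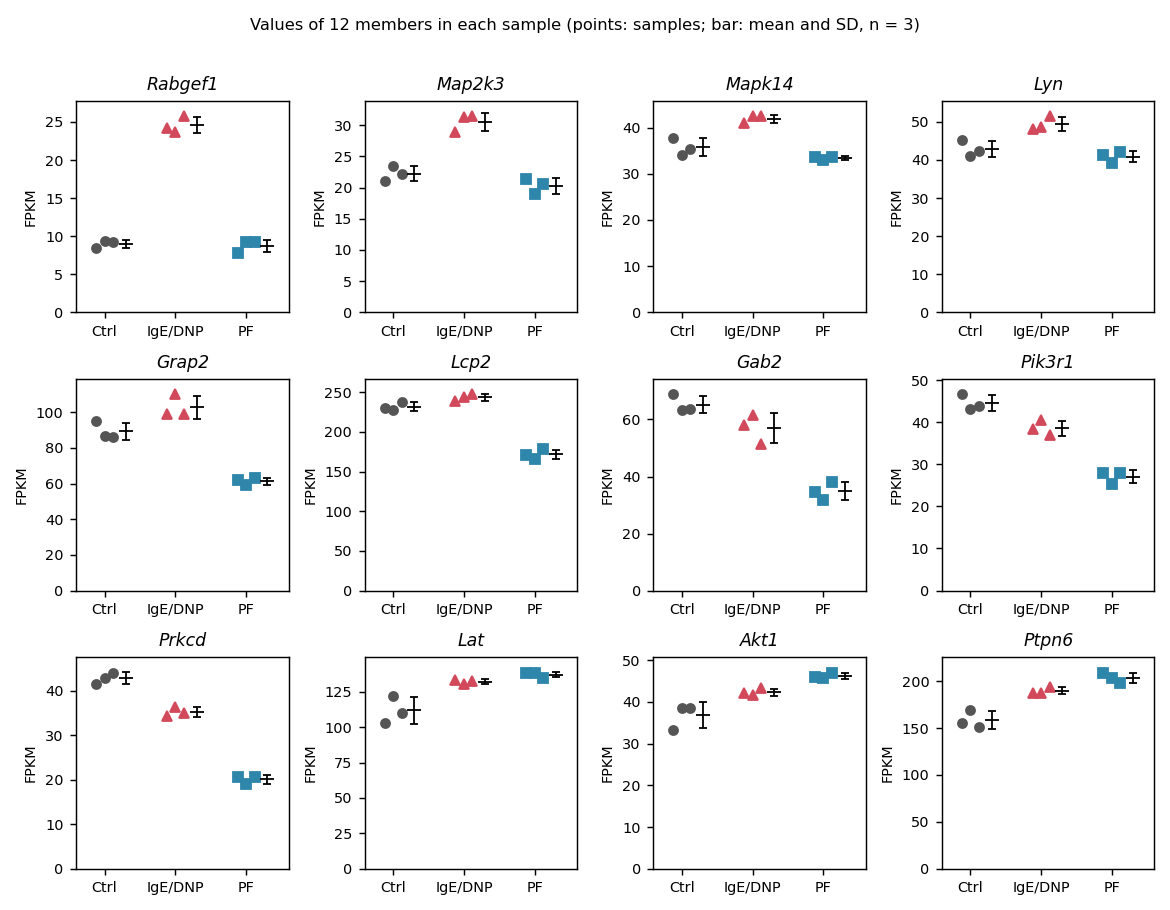
FPKM of 12 members in each sample, with the mean and SD of each group of 3 beside the points and the axis starting at 0. Rabgef1, Map2k3, Mapk14 and Lyn are highest in IgE/DNP samples, Grap2, Lcp2, Gab2, Pik3r1 and Prkcd are lowest in PF samples, and Lat, Akt1 and Ptpn6 are higher in both antigen groups than in Ctrl.

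Counts by role are small and some lie near the share of all genes. With antigen, 0 of 8 tested lipid enzymes rose and 1 fell, whereas 3 of 7 adaptors rose and 2 fell, and 3 of 9 tested genes of the MAPK branch rose and 1 fell, where 14.7% of all genes rose and 14.4% fell. Between PF and IgE/DNP samples, lower members made up 3 of 4 tyrosine kinases, 5 of 7 adaptors, 4 of 8 lipid enzymes, 4 of 10 MAPK branch genes, 2 of 7 exchange factors and Ras genes, 1 of 6 serine/threonine kinases and 1 of 6 restraining regulators, where 30.7% of all genes were lower. Between PF and Ctrl samples, 5 of 7 adaptors and 6 of 8 lipid enzymes were lower, with median log2 fold changes of -0.43 and -0.34, against 1 of 9 MAPK branch genes, with a median of -0.04, and 34.6% of all genes. In that comparison 3 of 6 serine/threonine kinases were higher, where 23.1% of all genes were, and 1 was lower. Their median of 0.11 differs in sign from the change of Prkcd. After scaling by median ratios, lower adaptors were 4 of 7 in both PF comparisons, lower lipid enzymes 4 of 8 against IgE/DNP and 5 of 8 against Ctrl, and lower tyrosine kinases 3 of 4 and 1 of 4, while 4 of 6 serine/threonine kinases were higher in PF than in IgE/DNP samples. Of all genes, 2742 of 10317 were then lower and 2527 higher against IgE/DNP, and 3176 of 10353 lower against Ctrl. After scaling to the mean sum, 4 of 6 restraining regulators were lower in PF than in IgE/DNP samples, where 4302 of 10320 genes were. Against Ctrl 1 serine/threonine kinase was higher and 2 were lower, where 1575 of 10343 genes were higher and 4316 lower. These counts describe roles of 4 to 10 tested members, and the difference between roles was not tested.

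**Figure D4:**
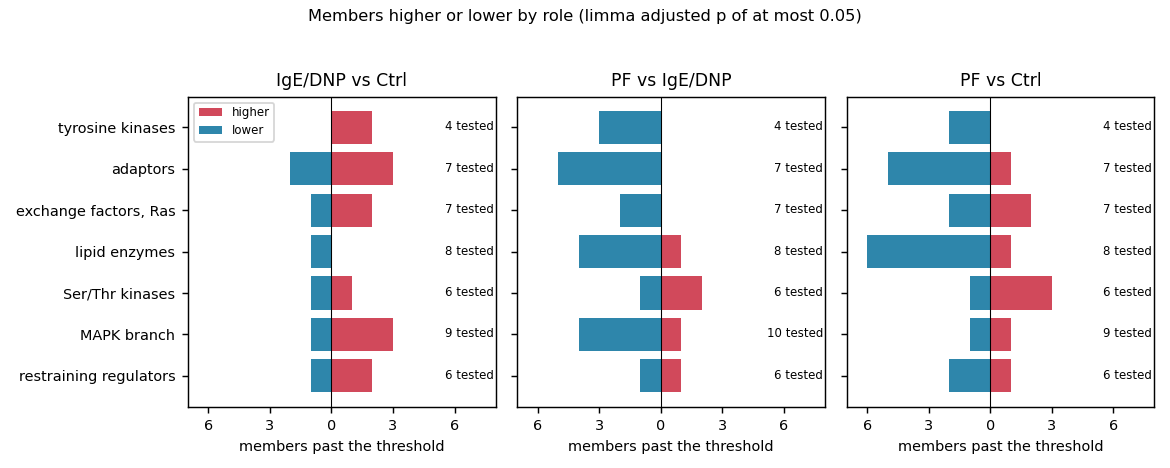
Number of members of each role that were lower (bars to the left) or higher (bars to the right) past the limma threshold in the 3 comparisons, with the number tested at the right. Lower members in PF samples include 3 of 4 tyrosine kinases against IgE/DNP, 5 of 7 adaptors in both PF comparisons and 6 of 8 lipid enzymes against Ctrl.

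Ratios of related members within a sample do not depend on the scaling between samples. Of 12 pairs, each compared in 3 ways, 20 of the 36 comparisons had groups that did not overlap, which with 3 samples against 3 gives the smallest p possible, 0.1 in a two-sided exact permutation test (0.18 after Benjamini-Hochberg adjustment over the 36). None can therefore pass 0.05. Of all single genes tested, 45.8% had groups apart with antigen, 57.6% between PF and IgE/DNP and 64.8% between PF and Ctrl. No share over ratios of other genes was computed. Some of the 20 rest on low genes, Sphk1 at 0.07 to 0.33 FPKM and Map2k6 at 0.52 to 1.55 FPKM. Akt2 to Akt1 was 0.892 ± 0.057 in Ctrl, 0.771 ± 0.031 in IgE/DNP and 0.655 ± 0.013 in PF samples (SD, n = 3 each), with all 3 groups apart. Cblb to Cbl went the other way, at 0.259 ± 0.015, 0.304 ± 0.0081 and 0.330 ± 0.017 (SD, n = 3 each), also with all groups apart. Mapk8 to Mapk14, JNK1 to p38 alpha, was 0.548 ± 0.029 in Ctrl and 0.525 ± 0.028 in IgE/DNP samples, which overlapped, and 0.697 ± 0.010 in PF samples (SD, n = 3 each). Pik3cb to Pik3cd was 1.44 ± 0.094 and 1.42 ± 0.11, which overlapped, and 1.71 ± 0.030 in PF samples (SD, n = 3 each). Mapk9 to Mapk8 separated Ctrl, at 0.656 ± 0.020, from both antigen groups, at 0.534 ± 0.044 in IgE/DNP and 0.536 ± 0.014 in PF samples (SD, n = 3 each). Lat2 to Lat was 1.34 ± 0.11 in Ctrl and 1.27 ± 0.045 in IgE/DNP samples, which overlapped, and 1.14 ± 0.024 in PF samples (SD, n = 3 each).

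**Figure D5:**
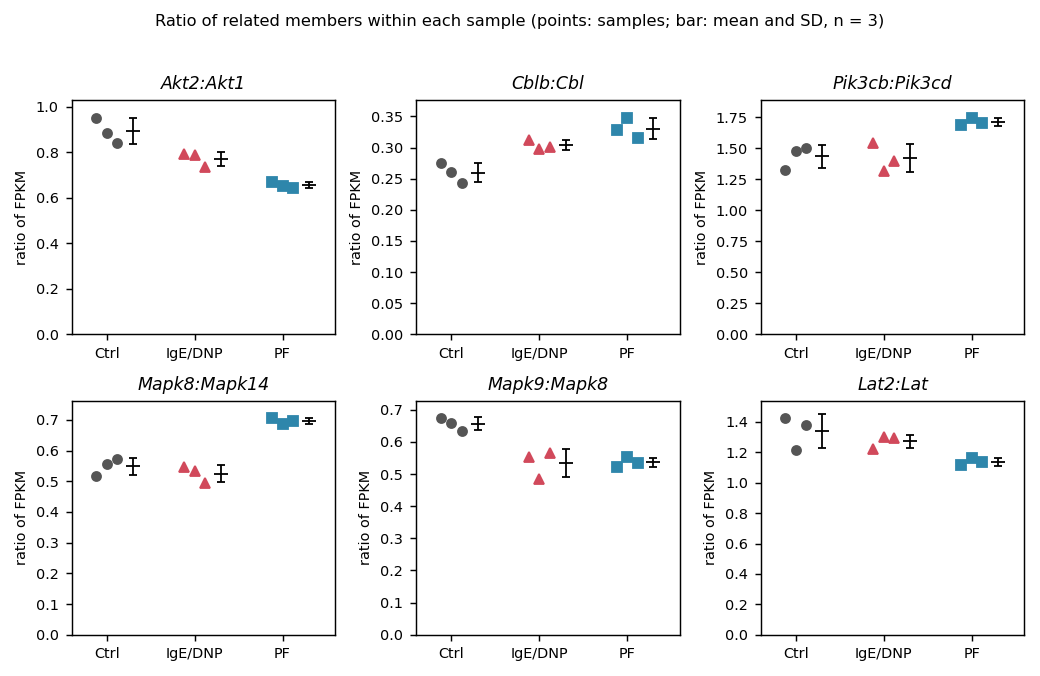
Ratio of FPKM of 2 related members within each sample, for 6 pairs, with the mean and SD of each group of 3 and axes starting at 0. Akt2 to Akt1 steps down and Cblb to Cbl steps up over the 3 groups, and Mapk8 to Mapk14 is high in PF samples.

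Other genes of the pathway, 88 in a list chosen by function, were counted beside the members. With antigen, 12 of the 71 tested rose, where 14.7% of all genes did, and 6 fell, where 14.4% of all genes did. Pag1, an adaptor that brings the inhibitory kinase Csk to Src kinases, was at 11.87, 9.57 and 10.25 FPKM in Ctrl, 17.61, 18.62 and 15.83 FPKM in IgE/DNP and 9.26, 8.73 and 10.79 FPKM in PF samples, so that IgE/DNP samples alone were high. It rose by 0.67 with antigen (standard error 0.0853, limma adjusted p = 0.00106), ahead of the Ras-inactivating gene Rasa1 at 0.39 and of Ubash3a at 0.38. Map3k1, a kinase above the JNK arm, had the lowest of the changes, at -0.38, and Map3k8, a kinase above the ERK arm, was at -0.30. Between PF and IgE/DNP samples, 35 of the list fell and 12 rose, where 30.7% of all genes fell and 18.1% rose. The lowest log2 fold changes were those of Prkce, a further PKC, at -0.88, Nck2, an adaptor, at -0.84, and Ubash3b, a phosphatase that acts on Syk, at -0.81. The highest were those of Crkl, at 0.66 (from 0.997 to 2.16 FPKM), of Mapk12, at 0.66, and of Fcer1g, the gamma chain of the receptor, at 0.34 (limma adjusted p = 4.34e-05). Between PF and Ctrl samples 31 fell and 17 rose, where 34.6% and 23.1% of all genes did, with Prkce at -0.96, Gab1 at -0.86 and Ubash3b at -0.85 lowest, and Mapk12 at 1.04, Ubash3a at 0.39 and Dgkz at 0.36 highest. Prkce was at 12.07, 11.09 and 11.83 FPKM in Ctrl, 11.62, 11.37 and 10.03 FPKM in IgE/DNP and 5.61, 5.32 and 5.58 FPKM in PF samples, the lowest 3 values being those of PF.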

How the data were processed

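RNA from 9 RBL-2H3 samples was sequenced. The study's methods name a BGISEQ-500 sequencer, SOAPnuke for read filtering, HISAT2 2.0.4 for mapping, and RSEM 1.2.12 with Bowtie2 2.2.5 for quantification. The labels name Illumina protocols and the rn6 build. The authors deposited 1 length- and depth-normalized value per gene and sample, read here as FPKM, since the heading names no unit. Of 38490 gene rows, 20484 have no value. Since rows come in 5 orders, gene identifiers were used to join samples.

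Members, lists and tests were chosen with earlier results of these data known. Each comparison used its own 6 samples in limma 3.58.1 (R 4.3.3) with a trended empirical Bayes fit of log2(FPKM + 1). A gene was tested where 3 or more samples reached 1 FPKM, p-values were adjusted by Benjamini-Hochberg over all genes tested, and the threshold was 0.05. Depth in reads is unknown, so precision rests on 3 samples per group. Members named with every value are 9 chosen ones and, per role and comparison, up to 3 with the largest change that passed with groups that did not overlap. Alternatives were a pseudocount of 0.1 FPKM, other filters and scalings, all 3 groups in the fit, a replicate block, limma without trend, a threshold of 0.01 and each sample left out in turn. The first PF sample alone was added after seeing the data. Of 14 planned ratio pairs, 2 held a gene listed at 0 and were left out. No count test was run. One gene that the rule for the other pathway genes would name is not reported here.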

Additional observations from a re-analysis of the deposited data

How the results depend on the processing

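With antigen, 20 members passed, and 9 did at a threshold of 0.01, 6 of them higher and 3 lower. With each sample left out in turn, between 13 and 16 members passed with antigen, 13 of them without IgE/DNP replicate 3, between 20 and 22 between PF and IgE/DNP (25 with all samples) and between 23 and 25 between PF and Ctrl (28 with all samples). Where 1 PF sample was left, the spread was taken from the other group. With the first PF sample alone, chosen after seeing the data, 18 and 22 passed. No member changed sign past the threshold in any alternative run. At a threshold of 0.05, 11 of the 20, 14 of the 25 and 21 of the 28 calls held in every alternative fit. Those that held with antigen were Lat, Lat2, Grb2, Shc1, Rasgrp4, Prkcd, Map2k3, Map2k7, Mapk14, Ptpn6 and Rabgef1. Without a filter on low values 15, 21 and 27 members passed, counted with the members that the filter had left out. Samples with the same replicate number did not deviate together in all pairs, with correlations of deviations from -0.082 to 0.19, so the numbers were not taken to pair them. With the replicate number as a block 17, 21 and 25 members passed. No share of all genes is given beside the member counts of these alternative fits. Whether members and other genes lost calls alike therefore cannot be read from them. Using (FPKM + 1) in the ratios, 21 of 36 comparisons had groups apart, and 20 did without it. Depth in reads is unknown, and members under the filter of a comparison, near or below 1 FPKM, were not tested in its main fit.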
